A study of Mus musculus with 4 samples.

Results

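Klrg1-high conventional CD8 T cells were 98 of the 36140 donor T cells that passed the cell filter, and 98 of 11015 conventional CD8 cells. They were chosen from single-cell RNA and antibody counts. A cell had to show CD45.1 over CD45.2 antibody counts at a log2 ratio above 2.2 and more Cd8a plus Cd8b1 than Cd4 unique molecular identifiers (UMIs, each standing for 1 captured RNA molecule). It also had to have 2 or more Klrg1 UMIs, fewer than 3 Il7r UMIs, fewer than 2 Tox UMIs, and 0 Gzmk and 0 Foxp3 UMIs. The 8 genes Klrg1, Il7r, Tox, Gzmk, Foxp3, Cd8a, Cd8b1 and Cd4 therefore set the group, and their levels are described without a test. The cells came as 11 from the CD226-knockout library, 37 from the TIGIT-knockout library, 22 from the double-knockout library and 28 from the wild-type library.

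The libraries hold T cells from spleens of BALB/c mice 8 days into acute graft-versus-host disease, the attack of transplanted T cells on the host. All recipients were irradiated with 900 cGy and received T-cell-depleted wild-type C57BL/6 bone marrow (CD45.1+ CD45.2+), C57BL/6 regulatory T (Treg) cells sorted as CD4+ CD25hi with a Foxp3-GFP reporter (CD45.2+ CD45.1-), and, later, wild-type C57BL/6 CD4+ and CD8+ conventional T cells depleted of Treg cells (CD45.1+ CD45.2-). The groups differ only in the Treg donor, which was CD226-/- TIGIT+/+ (CD226 knockout), CD226+/+ TIGIT-/- (TIGIT knockout), CD226-/- TIGIT-/- (double knockout) or CD226+/+ TIGIT+/+ (wild type). The CD8 cells described here were wild type in every group, so a genotype below is always that of the co-transferred Treg cells. Each genotype has 1 library made from a pool of 3, sorted as live H-2Kb+ TCRb+ cells. By lane label, the CD226-knockout and wild-type libraries belong to lane 3, and those of TIGIT knockout and double knockout to lane 4.

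KLRG1 is an inhibitory lectin-like receptor that binds cadherins and appears on CD8 T cells after strong or repeated antigen stimulation. With a low level of the interleukin-7 receptor (Il7r) it marks short-lived effector cells in infection models, which kill through granzymes and perforin and are mostly lost once antigen is cleared, while Il7r-high cells hold the precursors of memory. The transcription factors T-bet (Tbx21) and ZEB2 drive the short-lived effector state in mice, and TCF1 (Tcf7) maintains the memory side. In graft-versus-host disease, alloreactive donor CD8 cells of the effector kind take part in damage to host tissue.

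The 98 cells were deeper than the cells they are set beside. Their median depth was 12908, 14093, 10483.5 and 13465 UMIs in the CD226-knockout, TIGIT-knockout, double-knockout and wild-type libraries, against 9085, 7868, 8468 and 10252 UMIs in the 4485 cells that met every other criterion with 0 Klrg1 UMIs (Klrg1-0 cells). A deeper cell reaches 2 Klrg1 UMIs more easily, and fits on cells of equal depth are given beside the results below. Cycling was common, and 12 of the 98 cells had neither Mki67 nor Top2a UMIs. Of 131 cell barcodes seen in more than 1 library, 0 belonged to Klrg1-high cells. No doublet caller was applied. Over the 98 cells, the NKT and MAIT marker Zbtb16 and the platelet markers Pf4 and Ppbp had 0 UMIs, neutrophil markers had 4 UMIs and plasma cell markers 1 UMI. The summed level of 6 NK cell markers was 64.6 to 161 CPM (UMIs of the genes per 1000000 UMIs of the class) in Klrg1-high cells and 77.6 to 134 CPM in Klrg1-0 cells, and that of 5 B cell markers was 103 to 150 CPM against 108 to 141 CPM. Klra8 and Ms4a1 were at 0 in Klrg1-high cells of every library. In Klrg1-0 cells Ms4a1 was also at 0 in every library, and Klra8 in all but TIGIT knockout. Of the 6 NK cell markers, 5 had UMIs in Klrg1-high cells of the CD226-knockout and TIGIT-knockout libraries. In the double-knockout and wild-type libraries 3 did.

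Most conventional CD8 cells with high Klrg1 fell outside the group because they carried Gzmk, the gene of granzyme K. Of 514 conventional CD8 cells with 2 or more Klrg1 UMIs, 404 (78.6%) had Gzmk, 28 had 3 or more Il7r UMIs, 21 had Foxp3 and 18 had 2 or more Tox UMIs. Gzmk was found in 85.9, 62.2, 69.3 and 86.5% of them in the CD226-knockout, TIGIT-knockout, double-knockout and wild-type libraries. It was also found in 60.7, 43.9, 71.6 and 72.8% of conventional CD8 cells with 1 Klrg1 UMI. In those with 0 Klrg1 UMIs it was found in 46.0, 34.4, 54.5 and 48.8%. Just inside the threshold were 53 cells with exactly 2 Klrg1 UMIs, the highest cell had 12, and just outside were 311 cells with 1. On the antibody axis 34 of the 98 cells had a log2 ratio between 2.2 and 3, and 5 cells that met every other criterion lay between 1.4 and 2.2. The summed Klrg1 level of the group was 184, 206, 179 and 232 CPM in the CD226-knockout, TIGIT-knockout, double-knockout and wild-type libraries, a description since Klrg1 chose the cells. The threshold of 2 Klrg1 UMIs limits how far these levels can differ between libraries.

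Klrg1-high cells made up a smaller share of conventional CD8 cells in the libraries whose Treg donor lacked CD226. Within lane 3 the share was 0.423% (95% exact binomial interval 0.211 to 0.756) in the CD226-knockout library and 1.33% (0.889 to 1.92) in the wild-type library, and these intervals did not overlap. Within lane 4 it was 0.644% (0.404 to 0.974) in the double-knockout library and 1.27% (0.899 to 1.75) in the TIGIT-knockout library, with overlapping intervals. With 1 library per genotype the difference has no replicate check, and the intervals cover counting error only. After every cell was thinned to 3000 UMIs and chosen again by the same thresholds, the shares were 0.127% (3 cells) in CD226 knockout against 0.551% (10 cells) in wild type, and 0.0974% (3 cells) in double knockout against 0.436% (11 cells) in TIGIT knockout, with overlapping intervals in both pairs. With all UMIs kept, Klrg1-high cells were 0.981% (CD226 knockout) and 3.487% (wild type) of CD8 cells that met every other criterion, with intervals apart. In lane 4 they were 1.704% (1.071 to 2.569) in double knockout and 2.204% (1.556 to 3.025) in TIGIT knockout, with overlapping intervals. The lane 4 shares thus lay closer together on this base. Cells that met every other criterion were 1291 of 3415 CD8 cells in double knockout and 1679 of 2902 in TIGIT knockout.

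The share of CD8 cells was not above the share found in CD4 cells by the same criteria in every library. Conventional CD4 cells that met the same thresholds were 1.48% in the CD226-knockout, 1.58% in the TIGIT-knockout, 0.355% in the double-knockout and 1.31% in the wild-type library, with a median depth per cell of 8055.5, 7039.5, 7785 and 9013 UMIs, set beside 10029.5, 8887, 10015 and 11901 UMIs in CD8 cells. CD4 effector cells can carry KLRG1, so this share is no measure of free RNA alone. All conventional CD8 cells with 2 or more Klrg1 UMIs, whatever their Gzmk, Foxp3, Tox and Il7r, were 3.81% in the CD226-knockout, 3.82% in the TIGIT-knockout, 2.2% in the double-knockout and 10.9% in the wild-type library. With the Gzmk criterion alone left out, they were 82 of 2600, 97 of 2902, 68 of 3415 and 207 of 2098 CD8 cells. On either count the wild-type library stood apart from the other 3, and the TIGIT-knockout library no longer lay near it.

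**Figure D1:**
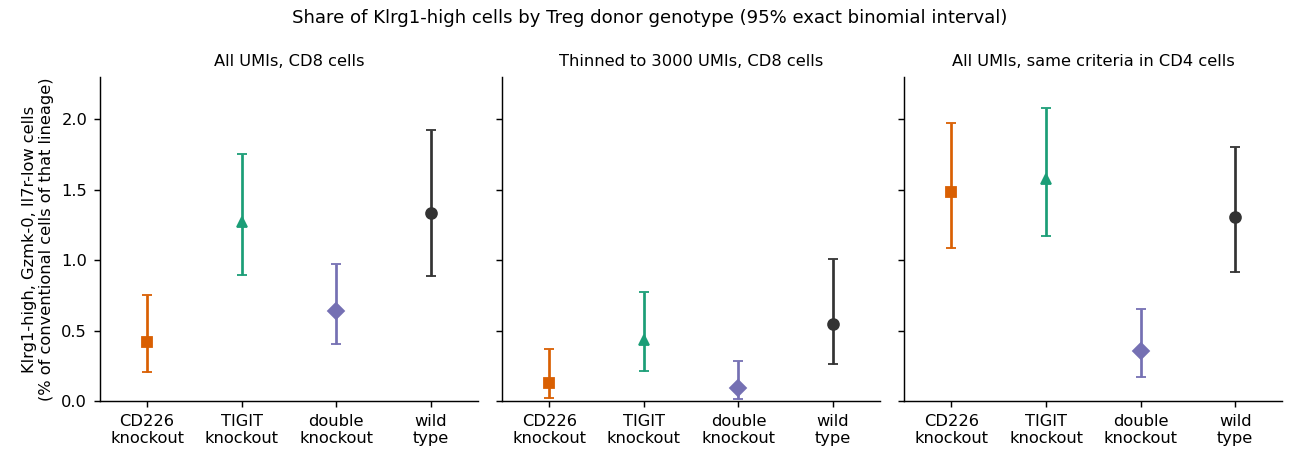
Share of Klrg1-high, Gzmk-0, Il7r-low cells (y axis, % of conventional cells of that lineage) in the 4 libraries (x axis, genotype of the Treg donor), with 95% exact binomial intervals as bars. In CD8 cells the share was 0.423% in the CD226-knockout and 0.644% in the double-knockout library, against 1.27% in the TIGIT-knockout and 1.33% in the wild-type library; after thinning to 3000 UMIs the intervals overlapped within each lane, and CD4 cells showed another order.

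Klrg1, Gzma and S100a4 were the markers by which these cells were named, and neither Gzma nor S100a4 passed the test as higher than in Klrg1-0 cells. Gzma, the trypsin-like granzyme A, stood at 4565, 7799, 8429 and 8315 CPM in Klrg1-high cells of the CD226-knockout, TIGIT-knockout, double-knockout and wild-type libraries, against 6513, 7347, 6664 and 5899 CPM in Klrg1-0 cells. It was higher in 3 libraries and lower in the CD226-knockout library, with a fitted log2 fold change of 0.07 ± 0.04 (SE, 4 libraries; edgeR quasi-likelihood test, adjusted p = 0.80), and the sign turned (-0.070) without the wild-type library. Without the CD226-knockout library it was called higher, by 0.27 (edgeR adjusted p = 1.5e-05). With each Klrg1-high cell set beside a Klrg1-0 cell of the same library and nearly equal depth, Gzma was higher, by 0.34 (edgeR adjusted p = 4.9e-04). Among single Klrg1-high cells Gzma ran from 0 to 338 UMIs with a median of 95, and 96 of 98 cells had at least 1.

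S100a4, a calcium-binding protein of activated and motile cells, was lower in Klrg1-high cells. It stood at 1407, 1005, 1590 and 842 CPM in Klrg1-high cells of the CD226-knockout, TIGIT-knockout, double-knockout and wild-type libraries, against 1695, 1152, 1649 and 1132 CPM in Klrg1-0 cells, so it was lower in 4 of 4 libraries. The log2 fold change was -0.28 ± 0.05 (SE; edgeR adjusted p = 1.8e-04). At equal depth the difference was -0.02 (edgeR adjusted p = 0.97), DESeq2 did not call it (adjusted p = 0.53), and edgeR's adjusted p was 0.053 without the TIGIT-knockout library. Gzma and S100a4 thus did not set the group apart from Klrg1-0 cells as higher genes, and the group is called by its Klrg1 level below. The T cell receptor chain Cd3e stood at 304, 206, 248 and 219.5 CPM in Klrg1-high cells of the same libraries, against 244, 224, 236 and 222 CPM in Klrg1-0 cells, with overlapping classes.

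Across the 9858 genes tested between Klrg1-high and Klrg1-0 cells, with the UMIs summed per library and class and the library as a block, 16 genes were higher (0.162% of genes tested) and 33 were lower (0.335%) at an adjusted p of at most 0.05. Together these 49 genes are 0.497% of genes tested, and 675 genes had an unadjusted p under 0.05. With scaling by library size alone the split was 20 higher and 22 lower. The sums of Klrg1-high cells rest on 11 to 37 cells per library, and the calls depended on the tool. DESeq2 called 4 genes higher and 2 lower, all among the 49: Ass1, Zeb2, Gm13546 and Plac8 were higher, and Trbc1 and Ifitm2 were lower. Without the library as a block only Ass1, Zeb2 and Plac8 were called. Of the 49 genes, 12 were called whichever library was left out: Zeb2, Plac8, Ccl5 and Ccl1 were higher, and Ifitm1, Ifitm2, Trbc1, Il18r1, Dapl1, Igkc, Gm42418 and AY036118 were lower.

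Zeb2 showed the largest difference among the genes called higher. This gene on chromosome 2 (chr2:44983632-45117395, minus strand, mm10) encodes the zinc-finger repressor ZEB2. It stood at 17.2 CPM in Klrg1-high cells of the CD226-knockout library, 23.2 in TIGIT knockout, 34.4 in double knockout and 31.0 in wild type, against 7.37, 5.10, 6.46 and 4.78 CPM in Klrg1-0 cells of those libraries. The lowest Klrg1-high library lay above the highest Klrg1-0 library, and the log2 fold change was 2.2 ± 0.35 (SE; edgeR adjusted p = 3.8e-07, DESeq2 adjusted p = 1.7e-05). It was 2.16 in lane 3 alone (adjusted p = 0.073), 2.24 in lane 4 alone (adjusted p = 0.0024), 1.99 at equal depth (adjusted p = 0.14) and 2.68 after every cell was thinned to 3000 UMIs (adjusted p = 0.073). These levels come from 37 UMIs in 25 of the 98 cells, and Zeb2 is named as a terminal effector gene since its mean was under the 20 CPM asked of other named genes.

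Plac8, Ass1 and Ifitm2 were called by both tools as well, as was Trbc1, given further below. Plac8 (chr5:100553725-100572245, minus strand), a small cysteine-rich protein of leukocytes, stood at 390, 295, 227 and 346 CPM in Klrg1-high cells of the CD226-knockout, TIGIT-knockout, double-knockout and wild-type libraries, against 214, 213, 192 and 218 CPM in Klrg1-0 cells. The groups did not overlap, the log2 fold change was 0.51 ± 0.09 (SE; edgeR adjusted p = 1.2e-05), and the equal-depth value was 0.89 (adjusted p = 3.0e-05). With every cell thinned to 3000 UMIs and the classes kept as chosen before thinning, Plac8 was 0.37 and not called (edgeR adjusted p = 0.65). Ass1 (chr2:31470207-31520672, plus strand), argininosuccinate synthase, which makes arginine from citrulline, stood at 97.6, 92.6, 65.4 and 127 CPM against 42.9, 56.2, 45.4 and 53.1 CPM. Its log2 fold change was 0.88 ± 0.16 (SE; edgeR adjusted p = 1.6e-05), and it was not called at equal depth (0.61, adjusted p = 0.31) or after thinning (0.63, adjusted p = 0.78). Without the wild-type library Ass1 was 0.71 higher with an edgeR adjusted p of 0.059.

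Ifitm2 (chr7:140954837-140955987, minus strand), an interferon-induced membrane protein that restricts virus entry, was lower. It stood at 695, 642, 499 and 416 CPM in Klrg1-high cells of the CD226-knockout, TIGIT-knockout, double-knockout and wild-type libraries, against 803, 907, 757 and 638 CPM in Klrg1-0 cells. Every library showed the lower level, with a log2 fold change of -0.54 ± 0.07 (SE; edgeR adjusted p = 1.2e-12, DESeq2 adjusted p = 1.7e-05) of -0.50 at equal depth (adjusted p = 0.0027) and of -0.68 after thinning (adjusted p = 4.5e-04). Trbc1, 1 of the 2 constant segments of the T cell receptor beta chain, was lower (log2 fold change -0.45 ± 0.07, SE; edgeR adjusted p = 7.5e-09, DESeq2 adjusted p = 0.041) in 4 of 4 libraries; it was named after its values were seen. Trbc1 shares long stretches with Trbc2, and the Ifitm genes are close paralogs, so the counting of reads between such copies is uncertain.

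The 250 bases upstream of 1 annotated transcription start are shown for Zeb2, Plac8, Ass1 and Ifitm2, which both tools called. Trbc1, also called by both, had no annotated start in the set used and is not shown. They are RefSeq sequences on GRCm38.p6, 5′ to 3′ on the gene's strand, for the annotated start nearest to a GENCODE transcript start. The Zeb2 window is chr2:45113280-45113529, that of Plac8 chr5:100572206-100572455, that of Ass1 chr2:31470020-31470269 and that of Ifitm2 chr7:140955962-140956211. These starts are not the outermost ones in GENCODE, so the Zeb2 window lies wholly inside the gene's span given above, and the Plac8, Ass1 and Ifitm2 windows lie partly inside theirs. Capitals mark the T-box core TCACACC, the motif of T-bet and EOMES, and the E-box CAGGTG, which ZEB proteins bind, each searched on both strands, with no overlap between them.
Zeb2: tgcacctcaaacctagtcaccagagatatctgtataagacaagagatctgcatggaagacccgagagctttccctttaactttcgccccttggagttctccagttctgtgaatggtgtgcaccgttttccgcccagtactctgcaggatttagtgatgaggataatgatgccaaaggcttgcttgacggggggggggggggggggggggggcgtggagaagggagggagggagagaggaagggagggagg
Plac8: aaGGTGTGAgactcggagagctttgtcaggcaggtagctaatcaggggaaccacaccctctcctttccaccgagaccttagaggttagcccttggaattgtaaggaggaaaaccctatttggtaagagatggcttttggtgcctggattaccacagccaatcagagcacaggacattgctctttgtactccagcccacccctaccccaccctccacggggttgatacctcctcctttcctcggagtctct
Ass1: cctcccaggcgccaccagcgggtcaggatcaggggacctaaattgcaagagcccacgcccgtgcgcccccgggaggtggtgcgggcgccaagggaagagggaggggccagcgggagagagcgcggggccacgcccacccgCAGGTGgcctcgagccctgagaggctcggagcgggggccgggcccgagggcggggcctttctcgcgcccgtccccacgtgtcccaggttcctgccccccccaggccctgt
Ifitm2: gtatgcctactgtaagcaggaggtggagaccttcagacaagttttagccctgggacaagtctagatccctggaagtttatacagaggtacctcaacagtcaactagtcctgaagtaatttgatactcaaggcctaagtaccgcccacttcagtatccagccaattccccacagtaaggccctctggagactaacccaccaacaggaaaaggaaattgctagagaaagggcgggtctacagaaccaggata

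The Plac8 window held the T-box core on the opposite strand, as GGTGTGA, and the Ass1 window held the E-box on its own strand. The Zeb2 and Ifitm2 windows held neither. Of 32851 windows of this length in the table, 3.33% held the T-box core and 17.2% the E-box on either strand, so a match is a description of these letters.

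**Figure D2:**
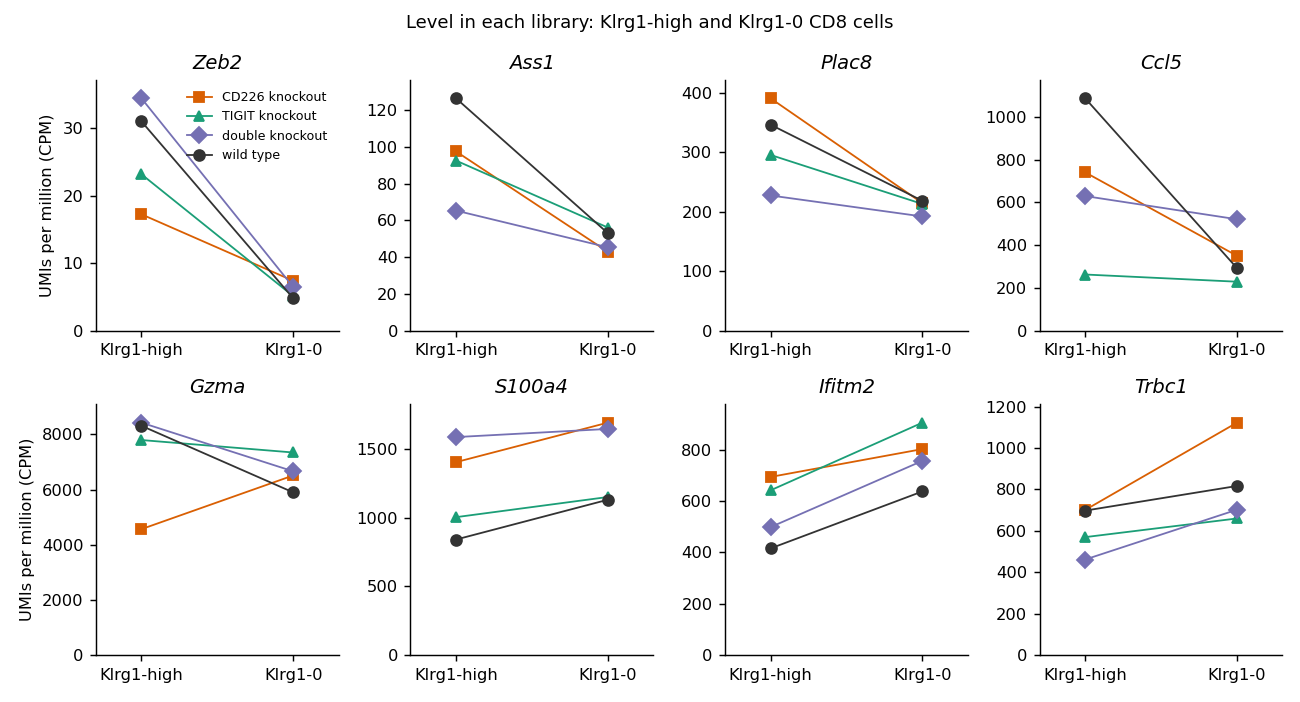
Level of 8 genes (y axis, CPM) in Klrg1-high and Klrg1-0 CD8 cells (x axis), with 1 point per library and class and a line joining the 2 classes of a library. Zeb2, Ass1, Plac8 and Ccl5 sit higher in Klrg1-high cells of all 4 libraries; S100a4, Ifitm2 and Trbc1 sit lower in all 4, and Gzma splits 3 to 1.

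Among secreted products, Ccl5, the chemokine RANTES that draws T cells and monocytes, was higher in Klrg1-high cells. It stood at 741, 262, 630 and 1087 CPM in the CD226-knockout, TIGIT-knockout, double-knockout and wild-type libraries, against 350, 229, 521 and 293 CPM in Klrg1-0 cells. The log2 fold change was 0.88 ± 0.07 (SE; edgeR adjusted p = 1.9e-30) and 1.01 at equal depth (adjusted p = 9.5e-05), yet DESeq2 gave an adjusted p of 0.9999, 5 cells held 71.7% of the richest library's UMIs, and without the wild-type library the value was at its lowest, 0.42. It was 1.52 in lane 3 alone and 0.19 in lane 4 alone, where it was not called. Ccl1 was called as well (log2 fold change 1.45), in 3 of 4 libraries, but 5 cells held 100% of the richest library's UMIs and 7 of 98 cells had any.

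The other genes named as higher in all 4 libraries were the guanylate-binding protein Gbp2 (0.83), the dipeptidase Pepd (0.81), the protease calpain 2 (Capn2, 0.66), cyclin D2 (Ccnd2, 0.49), glutaredoxin (Glrx, 0.45) and the inflammasome adaptor ASC (Pycard, 0.30), as log2 fold changes with edgeR adjusted p between 8.2e-04 and 0.011. Of these 6 genes, Capn2 (0.86) and Pycard (0.50) were also called at equal depth, and DESeq2 called none. After thinning neither was called (Capn2 -0.025, edgeR adjusted p = 0.996, and Pycard 0.19, adjusted p = 0.85). Their levels were modest. Gbp2, for example, stood at 68.9, 65.6, 37.8 and 67.1 CPM in the CD226-knockout, TIGIT-knockout, double-knockout and wild-type libraries, against 29.5, 36.2, 28.1 and 34.1 CPM in Klrg1-0 cells, with no overlap between the classes.

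Ifitm1, a paralog of Ifitm2, had the largest decrease among the genes that were called lower in 4 of 4 libraries and averaged at least 20 CPM. It fell by 1.12 on the log2 scale (edgeR adjusted p = 1.4e-74), at 322, 1360, 1060 and 297 CPM in Klrg1-high cells of the CD226-knockout, TIGIT-knockout, double-knockout and wild-type libraries, against 1611, 1806, 1632 and 1179 CPM in Klrg1-0 cells. It was not called by DESeq2 (-1.33, adjusted p = 0.98) or at equal depth (-0.51, adjusted p = 0.13), it was called after thinning (-1.07, edgeR adjusted p = 9.9e-17), and 5 cells held 55.0% of the richest library's UMIs. Bcl2, the anti-apoptotic protein, had 80.4, 96.5, 89.5 and 46.5 CPM in Klrg1-high cells of those libraries against 105, 113, 128 and 110 CPM in Klrg1-0 cells, a log2 fold change of -0.59 ± 0.14 (SE; edgeR adjusted p = 0.0094). The costimulatory receptor Cd27 (-0.61), the interleukin-18 receptor chain Il18r1 (-0.65), the adhesion molecule Jaml (-0.97), the oxysterol receptor Gpr183 (-1.05), the ribosome export factor Nmd3 (-1.05), the isoprenoid enzyme Idi1 (-1.04) and Klhdc4 (-0.85) were lower in 4 of 4 libraries, with edgeR adjusted p between 2.2e-04 and 0.018. Apart from Ifitm2, none of these was called by DESeq2 or at equal depth.

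Of the 18 memory and naive genes tested, 0 were higher and 3 were lower (Bcl2, Cd27 and Dapl1), with a median log2 fold change of -0.51 against -0.03 over all genes tested. Dapl1, a gene of naive and memory CD8 cells, had 0 UMIs in the 98 cells and 490 UMIs in Klrg1-0 cells, at least 5.003-fold lower when 3 UMIs over the whole group are taken as the floor. Tcf7 (-1.80, adjusted p = 0.14), Slamf6 (-0.57, adjusted p = 0.13) and Id3 (-0.76, adjusted p = 0.46) were below Klrg1-0 cells in 4 of 4 libraries and did not pass edgeR's test.

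Terminal effector genes other than Zeb2 did not pass. Of 15 tested, 1 was higher and 0 were lower, with a median of 0.09. Tbx21 (0.08), Id2 (0.09), Prdm1 (0.12) and Cx3cr1 (0.59) had edgeR adjusted p of 0.84 to 0.98, and a p of this size does not show that they were equal. Of 17 cytotoxic granule and death ligand genes, 0 were higher and 1 was lower: Prf1, the pore-forming protein perforin, at -0.47 (edgeR adjusted p = 0.024), lower in 3 of 4 libraries. Gzmb, the main granzyme of killing, was 2589, 4056, 4524 and 4974 CPM in Klrg1-high cells of the CD226-knockout, TIGIT-knockout, double-knockout and wild-type libraries, with a log2 fold change of -0.04 ± 0.04 against Klrg1-0 cells (SE; edgeR adjusted p = 0.93).

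Interferon-response genes had 3 higher and 0 lower of 16 tested, with a median of 0.22: Gbp2, Ly6a and Ly6c2. The list does not hold Ifitm1 and Ifitm2, interferon-induced genes that were called lower. Ly6c2, a surface marker of effector and memory CD8 cells, was 0.66 higher (edgeR adjusted p = 2.4e-10) but in 3 of 4 libraries, with 235, 191, 282 and 540 CPM against 271, 132, 250 and 166 CPM; without the wild-type library it was 0.16 and not called (adjusted p = 0.94). Of 25 proliferation genes 0 were called in either direction (median -0.03; Mki67 0.04, Top2a 0.03), of 19 glycolysis and mTORC1 genes 0, of 13 inhibitory receptor genes 0, and of 21 ribosomal protein genes 0, although all 21 had negative log2 fold changes (median -0.10). Of 10 NK lectin-like receptors 1 was lower (Klrk1, -0.44), of 14 cytokine receptors 1 was lower (Il18r1), of 19 homing genes 1 was lower (Cxcr6, -0.33), and of 17 T cell receptor signalling genes Nfkbia was called higher and Egr1 lower.

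Of genes marking other cells, the NK and myeloid gene Fcer1g (-0.69) and the neutrophil genes S100a8 (-3.62) and S100a9 (-4.33) were called lower. Fcer1g was the 1 gene called of the 5 NK cell genes tested. The other 4 had positive log2 fold changes, and the median of the 5 was 0.74 against -0.03 over all genes tested. The neutrophil genes rest on 1 Klrg1-0 cell of the TIGIT-knockout library, which held 2120 of the 2183 neutrophil marker UMIs of that class and library. Igkc, an immunoglobulin light chain of B and plasma cells, was called lower as well, with 8 UMIs in Klrg1-high and 2847 UMIs in Klrg1-0 cells. In the Klrg1-0 library richest in Igkc, 5 cells held 95.9% of its UMIs. In the CD226-knockout library Igkc was higher in Klrg1-high cells, and neither DESeq2 (adjusted p = 0.9999) nor the thinned fit (edgeR adjusted p = 0.55) called it.

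The Zeb2 difference appeared at the Klrg1 threshold rather than below it. In the CD226-knockout, TIGIT-knockout, double-knockout and wild-type libraries, cells with 3 or more Klrg1 UMIs had 15.6, 30.6, 75.1 and 29.1 CPM of Zeb2 and cells with exactly 2 had 18.2, 18.6, 19.0 and 35.5 CPM. Cells with 1 Klrg1 UMI had 10.1, 4.07, 6.88 and 5.92 CPM, close to the levels of cells with none. These are descriptions with wide counting intervals, such as 27.6 to 164 CPM for the 6 double-knockout cells with 3 or more Klrg1 UMIs. S100a4 ran the other way in 4 of 4 libraries, at 1217, 836, 1127 and 827 CPM in cells with 3 or more Klrg1 UMIs, against 1695, 1152, 1649 and 1132 CPM in cells with none. Gzma showed no such order, since CD226-knockout cells with 2 or with 3 or more Klrg1 UMIs lay below those with none.

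**Figure D3:**
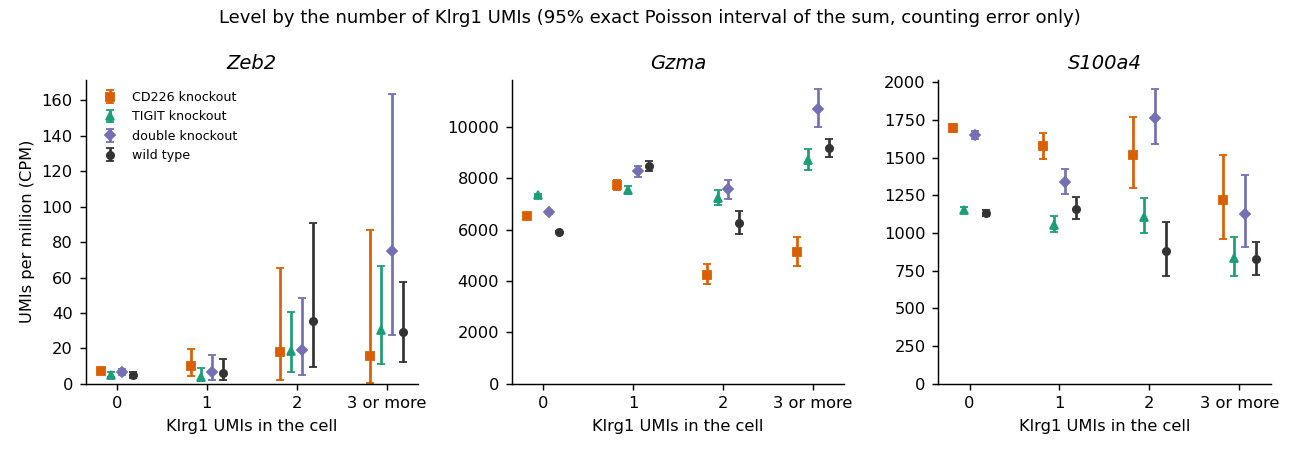
Level of Zeb2, Gzma and S100a4 (y axis, CPM) by the number of Klrg1 UMIs in the cell (x axis), 1 point per library, with 95% exact Poisson intervals of the summed count as bars. Zeb2 lies between 4.07 and 10.1 CPM at 0 or 1 Klrg1 UMI and between 15.6 and 75.1 CPM at 2 or more. Its intervals at 1 and at 2 overlap in every library. S100a4 is lowest at 3 or more, and Gzma has no common order.

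Against 277 Il7r-high conventional CD8 cells (3 or more Il7r UMIs, fewer than 2 Klrg1 UMIs, the Foxp3, Tox and Gzmk criteria the same), the Klrg1-high cells differed by many more genes. Of 5860 genes tested, 60 were higher (1.02%) and 192 were lower (3.28%), together 4.3%, and 924 had an unadjusted p under 0.05. Scaled by library size alone the split was 117 higher and 138 lower, so the balance of directions depends on the scaling. DESeq2 called 4 higher and 21 lower, all among these 252 genes. At equal depth 38 were higher and 81 lower, of which 110 were among the 252. Of the 252 genes, 107 were called whichever library was left out, 18 higher and 89 lower.

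Of 16 cytotoxic granule and death ligand genes tested against Il7r-high cells, 3 were higher (Gzmb, Serpinb9 and Gzma) and 2 were lower (Srgn, -0.29, and Ctsw, -0.46), with a median of 0.17. Gzmb stood at 2589, 4056, 4524 and 4974 CPM in Klrg1-high cells of the CD226-knockout, TIGIT-knockout, double-knockout and wild-type libraries, against 2439, 2135, 1886 and 1586 CPM in Il7r-high cells, a log2 fold change of 0.93 ± 0.12 (SE; edgeR adjusted p = 1.9e-05, DESeq2 adjusted p = 0.37). The classes did not overlap, although in the CD226-knockout library they were nearly level. Serpinb9, the inhibitor that shields killer cells from their own granzyme B, had 327, 201, 258 and 207 CPM against 185, 122, 107 and 123 CPM (0.81; edgeR adjusted p = 1.1e-04, DESeq2 adjusted p = 0.025). Gzma was 0.61 higher (edgeR adjusted p = 0.0063) but in 3 of 4 libraries, since the CD226-knockout library had 4565 CPM in Klrg1-high and 6285 CPM in Il7r-high cells. It was not called without the wild-type (0.44, adjusted p = 0.16), TIGIT-knockout (0.51, 0.14) or double-knockout library (0.51, 0.12).

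Of 9 cytokine and chemokine genes tested, 1 was higher, Ccl5 (1.44 ± 0.18, SE; edgeR adjusted p = 1.2e-05), and 1 was lower, Ltb. The metallothionein Mt1 (1.42), the transcription factor Cebpb (1.19), the GTPase Gem (1.09), the costimulatory receptor 4-1BB (Tnfrsf9, 0.99), the fatty-acid-binding protein Fabp5 (0.86), the actin-severing protein Dstn (0.92) and the pyrimidine enzyme Umps (0.77) were higher in 4 of 4 libraries, with edgeR adjusted p of 0.049 or less. So were the cell-cycle genes Rrm2 (0.84), Gins2 (0.83), Spc25 (0.98), Haspin (0.96) and Hist1h1a (0.98). Among all 25 proliferation genes of the list, 2 were higher (Mki67 and Rrm2) and 0 lower, with a median of 0.28 against 0.00 over all genes tested. Cells with neither Mki67 nor Top2a UMIs were 8.11 to 21.4% of Klrg1-high cells and 23.3 to 39.2% of Il7r-high cells by library, and the part of this in the other differences was tested only on the 12 Klrg1-high cells without these UMIs, where Gzmb was the 1 gene called higher and Bcl2 the 1 called lower.

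Memory and naive genes were lower in Klrg1-high cells than in Il7r-high cells. Of 15 tested, 9 were lower and 0 higher, with a median of -1.01, and all 15 had negative log2 fold changes. Bcl2 stood at 80.4, 96.5, 89.5 and 46.5 CPM in Klrg1-high cells of the CD226-knockout, TIGIT-knockout, double-knockout and wild-type libraries, against 196, 181, 253 and 216 CPM in Il7r-high cells (-1.47 ± 0.16, SE; edgeR adjusted p = 1.5e-06). Interleukin-7 signalling is known to sustain Bcl2, and Il7r itself chose both classes. Ltb (-1.36), Slamf6 (-1.16), Satb1 (-1.01), Id3 (-1.28), Cd28 (-0.58) and Tcf7 (-3.01) were called as well, and Tcf7 had 5 UMIs in Klrg1-high cells and 82 in Il7r-high cells. Dapl1 had 0 UMIs in Klrg1-high cells against 134 in Il7r-high cells, at least 21.4-fold lower with a floor of 3 UMIs over the group.

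**Figure D4:**
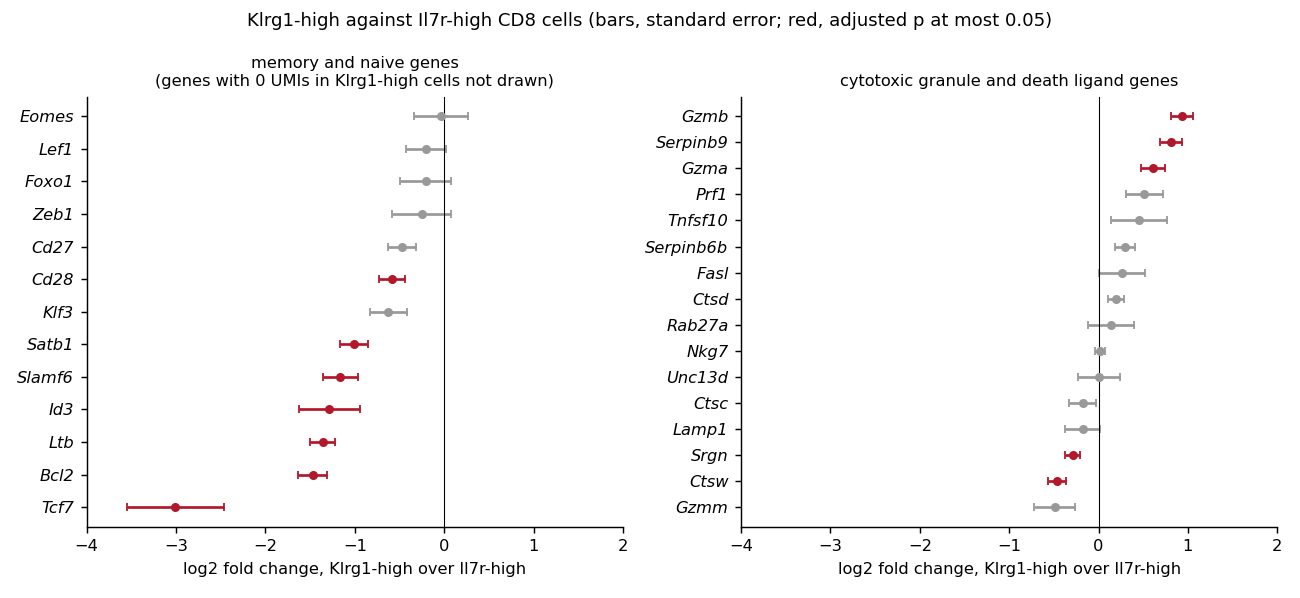
Log2 fold change of Klrg1-high over Il7r-high CD8 cells (x axis) for the memory and naive genes (left) and the cytotoxic granule and death ligand genes (right) that were tested, with standard errors as bars and red for an adjusted p of at most 0.05. Genes with 0 UMIs in Klrg1-high cells are not drawn, and all memory and naive genes drawn lie below 0; Gzmb, Serpinb9 and Gzma are called higher, Srgn and Ctsw lower.

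Further genes named as lower than in Il7r-high cells were Gpr183 (-2.01), Ifitm1 (-1.66), the translation repressor Pdcd4 (-1.51), the CD30 ligand Tnfsf8 (-2.21), Gprin3 (-1.49), Swap70 (-1.46), the pro-apoptotic BIM gene Bcl2l11 (-1.39) and the nuclear receptor Rora (-1.38), each in 4 of 4 libraries with edgeR adjusted p of 0.028 or less. Ifitm2 was lower by 1.16 and, with Bcl2, Gpr183, Pdcd4, Ltb, Tcf7, Dapl1, Satb1, Klrd1 and Trbc1, was also called by DESeq2. The chemokine receptor Ccr2 (-0.83) and Cxcr6 (-0.47) were lower in 4 of 4 libraries, as was the NK receptor chain Klrd1 (-0.67). Of 21 ribosomal protein genes 16 were lower and 0 higher, with a median of -0.21. Zeb2 was higher here too, with 17.2, 23.2, 34.4 and 31.0 CPM against 3.27, 4.42, 3.93 and 5.95 CPM (2.48 ± 0.49, SE; edgeR adjusted p = 0.0020). S100a4 was lower, by 0.44 on the log2 scale (edgeR adjusted p = 0.0015), in 3 of 4 libraries. Gamma-delta T cell markers summed to 12 UMIs in Klrg1-high cells and 108 UMIs in Il7r-high cells, of which Tcrg-C1 (1 UMI against 61) was called lower. Their part in the other differences was not tested.

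A further comparison, added after the counts of Gzmk-positive cells were seen, set the 98 cells beside 356 conventional CD8 cells with 2 or more Klrg1 UMIs and Gzmk, all other criteria the same. The same Klrg1 threshold chose both classes, so their Klrg1 level is a description. It was 184, 206, 179 and 232 CPM in Gzmk-0 cells and 183, 196, 177 and 192 CPM in Gzmk-positive cells of the CD226-knockout, TIGIT-knockout, double-knockout and wild-type libraries. Of 6273 genes tested, 28 were higher (0.446%) and 16 lower (0.255%) in the Gzmk-0 cells, together 0.701%, and 521 had an unadjusted p under 0.05. Without the library as a block 5 were higher and 4 lower. Of the 44 genes, 11 were called whichever library was left out. Itgb1, Ifitm2, Ifitm3, Capg, Srgn and S100a4 were the higher ones, and Gzma, Ctla2a, Ccl5, Ly6c2 and Wdr95 the lower ones. Gzma was 4565, 7799, 8429 and 8315 CPM in Gzmk-0 cells of those libraries, against 11346, 10178, 13207 and 11627 CPM in Gzmk-positive cells, with no overlap (-0.70 ± 0.06, SE; edgeR adjusted p = 2.5e-13).

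Of the 16 cytotoxic genes tested, 4 were lower in the Gzmk-0 cells (Gzma, Gzmb, Prf1 and Nkg7) and 1 was higher (Srgn), with a median of -0.12 against 0.00 over all genes. Of these, only Gzma and Srgn were called whichever library was left out. Gzmb and Nkg7 were called in 3 of 4 such fits and Prf1 in 2. In the wild-type library Gzmb was nearly level, at 4974 CPM in Gzmk-0 and 5026 CPM in Gzmk-positive cells. Prf1 was 0.69 lower (log2 fold change -0.69; edgeR adjusted p = 0.0027). Ctla2a, a cathepsin inhibitor of activated T cells, was 103, 86.8, 65.4 and 139 CPM in Gzmk-0 cells of the CD226-knockout, TIGIT-knockout, double-knockout and wild-type libraries, against 277, 223, 285 and 287 CPM in Gzmk-positive cells (-1.41 ± 0.13, SE; edgeR adjusted p = 3.8e-12). Ccl5 (-1.15), Ly6c2 (-0.69), Wdr95 (-1.76), Esm1 (-1.21), Idi1 (-1.10), Chchd10 (-1.01) and Klhdc4 (-0.81) were lower in 4 of 4 libraries as well. With a library left out, Chchd10 was called in 3 of 4 fits, Esm1 in 2, Idi1 in 1 and Klhdc4 in 0.

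Itgb1, the integrin beta 1 chain, was higher in the Gzmk-0 cells. It stood at 563, 411, 292 and 307 CPM in Gzmk-0 cells of the CD226-knockout, TIGIT-knockout, double-knockout and wild-type libraries, against 225, 230, 155 and 183 CPM in Gzmk-positive cells (0.92 ± 0.10, SE; edgeR adjusted p = 3.4e-10). Ifitm2 was 695, 642, 499 and 416 CPM against 284, 336, 243 and 182 CPM (1.09 ± 0.09, SE; edgeR adjusted p = 1.5e-14), so it lay below Klrg1-0 cells and above Gzmk-positive cells. Ifitm3 (0.98), the semaphorin and VEGF coreceptor Nrp1 (1.47), the interleukin-2 receptor alpha chain Il2ra (0.90), the OX40 receptor Tnfrsf4 (0.76), its adaptor Traf1 (0.75), the transcription factor Gata3 (0.64), Gbp2 (0.83), the actin-capping protein Capg (0.78), Ptpn13 (1.35), Susd3 (1.15), Lgals7 (1.28), Podnl1 (0.93) and Ighm (0.92) were higher in 4 of 4 libraries, with edgeR adjusted p of 0.044 or less. With each library left out in turn, Ifitm3 and Capg were called in 4 of 4 fits and Lgals7 in 3. Il2ra, Tnfrsf4, Gata3 and Ighm were called in 2 of these fits, and Nrp1, Traf1, Gbp2, Ptpn13, Susd3 and Podnl1 in 1. DESeq2 and equal-depth fits were not run for this comparison. S100a4 was 0.36 higher in the Gzmk-0 cells (edgeR adjusted p = 6.5e-05), in 4 of 4 libraries. Of 2 Treg cell markers, Foxp3 was at 0 in both classes by rule and Ikzf2 did not pass (0.19, edgeR adjusted p = 0.93). Ighm is a B cell marker, and the part of B cell RNA in its difference was not tested.

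Within the Klrg1-high cells, the Treg genotype contrasts have 1 library a side and are untested. Among the 2779 genes averaging 50 CPM or more, 19 (0.684%) were at least 1.5-fold higher and 27 (0.972%) at least 1.5-fold lower with loss of CD226 in both lanes (CD226 knockout over wild type in lane 3, double knockout over TIGIT knockout in lane 4). For CD226 and for TIGIT, the genes named are the 5 highest and 5 lowest by the smaller of their 2 changes. Their intervals come from the same counts and do not allow for that choice, so an interval that leaves out 1 is no test. S100a4 had the narrowest intervals of those named. It stood at 1407 CPM in the CD226-knockout and 842 CPM in the wild-type library, a ratio of 1.67 (95% interval 1.41 to 1.98, counting error only), and at 1590 CPM in the double-knockout and 1005 CPM in the TIGIT-knockout library, a ratio of 1.58 (1.39 to 1.80). Klrg1-0 cells of the same libraries showed ratios of 1.5 and 1.43, so S100a4 was higher with loss of CD226 in both classes.

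The linker histone gene Hist1h1c had ratios of 2.06 (1.16 to 3.65) in lane 3 and 1.61 (1.10 to 2.35) in lane 4 with loss of CD226, against 0.906 and 0.964 in Klrg1-0 cells. Ppp3r1 (2.04 and 1.70), a subunit of the phosphatase calcineurin, Bccip (1.67 and 1.72) and Fbxo5 (1.56 and 1.55), which restrains the anaphase-promoting complex, were the other named higher genes, each with at least 1 interval that includes 1. Git2 (0.397 and 0.396), Oard1 (0.541 and 0.357), Nup37 (0.519 and 0.386), Zfp330 (0.537 and 0.482) and Psen2 (0.460 and 0.540) were lower, each on 5 to 10 UMIs in the 2 libraries that lack CD226 and with an interval that includes 1 in lane 3.

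Loss of TIGIT in the Treg donor is compared across lanes, so lane and genotype cannot be told apart. Of the same 2779 genes, 20 (0.72%) were at least 1.5-fold higher and 13 (0.468%) at least 1.5-fold lower in both contrasts (TIGIT knockout over wild type, double knockout over CD226 knockout). H2-T23, which encodes the nonclassical class I molecule Qa-1, was 135 CPM in the TIGIT-knockout and 219.5 CPM in the wild-type library, a ratio of 0.615 (0.442 to 0.854), and 169 CPM in the double-knockout and 269.9 CPM in the CD226-knockout library, a ratio of 0.625 (0.410 to 0.953). Its ratios in Klrg1-0 cells were 0.942 and 1.01. The replication protein Rpa1 (1.82 and 1.71), Pura (1.83 and 1.70), the splicing factor Srsf4 (1.84 and 1.71), Ube2e3 (1.70 and 2.65) and Rbm27 (1.66 and 2.70) were higher, and Gorasp2 (0.548 and 0.519), Trappc6a (0.591 and 0.599), Kdm5a (0.614 and 0.545) and Farsb (0.630 and 0.539) lower. Of these 9 genes each had at least 1 interval that includes 1.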

How the data were processed

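Single-cell RNA and antibody libraries of donor T cells were deposited as UMI counts, 1 filtered matrix per library with 31053 genes and 2 antibodies, made with Cell Ranger 3.1.0 on mm10 per the submitters' processing notes. The deposited counts were not normalized. Cells of 500 genes or more with mitochondrial UMIs up to 10% were kept; no doublet caller was run. The rule in the report was applied per library, and the cells and gene lists were chosen with earlier results of these data known.

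UMIs were summed per library and class, 8 sums per comparison. They were tested with edgeR 4.0.16 (R 4.3.3; TMM scaling, filterByExpr, quasi-likelihood test, Benjamini-Hochberg adjusted p of at most 0.05 over all genes tested), with the library as a block because both sums of a library come from the same pooled cells. The SE is the log2 fold change divided by the square root of F. The labels do not say whether the pools came from separate experiments, and the 4 libraries differ in Treg genotype. The p-values and SE rest on a dispersion fitted across genes (common value 0.00357 against Klrg1-0 and 0.00522 against Il7r-high cells). They can be smaller than a gene's own spread between libraries. For Ifitm1 against Klrg1-0 cells the SE was 0.06. Its log2 ratios were -2.32, -0.41, -0.62 and -1.99 in the CD226-knockout, TIGIT-knockout, double-knockout and wild-type libraries. The 8 rule genes stayed out of all calls. DESeq2 1.42.0 was an alternative. Named genes were the 15 highest and 10 lowest by fold with a mean of at least 20 CPM and 1 direction in all libraries, leaving out V, D and J segments and predicted genes named only by a Gm or clone number (such as Gm13546 and AY036118), plus list members. Genes named beside counts outside this rule were chosen after their values were seen. "Equal depth" compares each Klrg1-high cell with a cell of the same library and nearly equal UMIs. Fits after thinning kept the classes chosen from all UMIs, while thinned shares chose the cells again.

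On simulated data for the Klrg1-0 comparison (9623 genes), 62%, 94%, 100% and 100% of genes changed 1.5-, 2-, 3- and 4-fold were found, with 9 false among 187 calls; for the Il7r-high comparison (5658 genes) 42%, 78%, 92% and 100%, with 8 false among 164. Every simulated gene had the common dispersion of its comparison and the same fold in each library, and changes were placed only in genes above 20 CPM. The simulation holds no wider spread of single genes between libraries, as seen for Ifitm1. It therefore cannot give the share of false calls in the real fits. Sums of Klrg1-high cells held 174170, 518295, 290658 and 387236 UMIs in the CD226-knockout, TIGIT-knockout, double-knockout and wild-type libraries. Intervals are exact, at 95%, and cover counting error only. Genotype contrasts counted genes at least 1.5-fold apart with a pseudocount of 1 CPM. Python 3.11.15 with numpy 2.4.6, scipy 1.17.1 and pandas 2.3.3 did the rest. Some genes of the lists are counted but not reported by name here.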

Additional observations from a re-analysis of the deposited data

Results flagged for a closer look

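Of 120 sets of 4 library values examined, 6 held 1 library far from the other 3; chance gives about 1 in 20. In the comparison with Klrg1-0 cells, the log2 ratio of Nfkbia, an inhibitor of NF-kB, was 1.361 in the wild-type library and -0.151, -0.072 and 0.010 in the CD226-knockout, TIGIT-knockout and double-knockout libraries. In the comparison with Il7r-high cells, the log2 ratio of Gzma was -0.461 in the CD226-knockout library and 0.941 to 1.180 in the others, and that of Zeb2 was 2.844 in the double-knockout library and 2.093 to 2.203 in the others. In the comparison with Gzmk-positive cells, the log2 ratio of Ptpn13 was 1.937 in the TIGIT-knockout library and 0.984 to 1.139 in the others. That of Ighm was 1.877 in the wild-type library and 0.309 to 0.456 in the others. That of Ccl1 was -4.908 in the wild-type library, where Klrg1-high cells held 0 Ccl1 UMIs, and 4.830 to 5.999 in the others.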

How the results depend on the processing

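Genes are given as higher and lower. Against Klrg1-0 cells (16 and 33) they were 4 and 2 by DESeq2, 3 and 0 without the replicate block, 10 and 13 in lane 3, 4 and 9 in lane 4, 0 and 5 among cells without Mki67 or Top2a, 2 and 8 after thinning to 3000 UMIs, and 79 and 130 with the Gzmk criterion left out (chosen after seeing the data). The lower genes were 53 with no low-count filter, 12 at an antibody log2 ratio above 3, 10 at equal depth and 18 at 3 or more Klrg1 UMIs. Leaving out each library gave 7 to 17 higher and 16 to 27 lower. Against Il7r-high cells (60 and 192) they were 4 and 21 by DESeq2, 57 and 168 without the replicate block, 29 and 82 in lane 3, 34 and 83 in lane 4, 31 and 107 in cells of 1000 genes or more with mitochondrial UMIs up to 5%, 39 and 116 at a ratio above 3, 38 and 81 at equal depth, 1 and 1 without Mki67 or Top2a, 30 and 73 at 3 or more Klrg1 UMIs, 35 and 85 after thinning, and 117 higher by library size alone. Leaving out each library gave 33 to 66 and 122 to 142. Against Gzmk-positive cells (28 and 16) they were 5 and 4 without the replicate block and 10 to 31 and 6 to 20 with a library left out. The cause of these changes was not tested, beyond fewer cells or libraries by construction.

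Log2 fold changes that turned sign against Klrg1-0 cells were Ccl5 (-0.20) and Gzma (-0.32) with all Klrg1-0 CD8 cells; Gzma (-0.070; 0.27 at most with another library left out) and Nfkbia (-0.13; 0.61 at most) without the wild-type library; Gzma (-0.029) and Ccl1 (-0.48) in lane 3; Nfkbia (-0.085) in lane 4; Ccl1 (-0.74) at equal depth; Capn2 (-0.025) after thinning; and Pepd (-0.061), Capn2 (-0.14), Pycard (-0.15), Ly6a (-0.23), Ly6c2 (-0.45) and Ccl1 (-7.94) among cells without Mki67 or Top2a. Against Il7r-high cells S100a11 (0.16), Srgn (0.22) and Lgals3 (-0.43) did so among cells without Mki67 or Top2a. Of the other gene values, 894 kept direction and side of the threshold, 620 lost it and 3 gained it.

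Thinned shares were 0.127% (CD226 knockout), 0.436% (TIGIT knockout), 0.0974% (double knockout) and 0.551% (wild type). Genes past 1.5-fold, higher and lower with loss of CD226 and then of TIGIT, were 38, 44, 49 and 37 at a ratio above 3, 151, 135, 130 and 140 after thinning, and 125, 137, 100 and 97 from 20 CPM. A pseudocount of 10 gave 12 higher with loss of CD226 and 12 higher and 8 lower with loss of TIGIT, and the stricter cell filter gave 21 lower with loss of TIGIT. The 11 to 37 cells per library limit every value, and genes of a few CPM rest on single UMIs.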

Other observations

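Of the UMIs of both T cell receptor beta-chain constant genes, Trbc1 held 24.1%, 22.8%, 18.8% and 23.8% in Klrg1-high cells of the CD226-knockout, TIGIT-knockout, double-knockout and wild-type libraries, against 35.5%, 25.6%, 25.1% and 26.1% in Klrg1-0 cells. Each T cell uses 1 of these genes in its productive beta chain, and 2, 4, 2 and 6 Klrg1-high cells of those libraries had more Trbc1 than Trbc2 UMIs. No receptor sequences were analysed here.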
